A study of Homo sapiens with 6 samples.

Results

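The FOS and JUN proteins are the core of activator protein 1 (AP-1), and the 7 human genes that encode them (FOS, FOSB, FOSL1, FOSL2, JUN, JUNB and JUND) were taken by name and not by any measured value. Of these 7 genes, 6 were among the 11048 genes listed in every library, 3 of the FOS family and 3 of the JUN family. FOSL1 was not among the listed genes and has no value here. The RNA came from MM1.S, an established human multiple myeloma cell line, and was sequenced from 6 libraries. Cells were exposed for 6 h to the solvent DMSO, to 3 µM CCF642 or to 3 µM CCF642-34, with 2 libraries in each group. CCF642 is an inhibitor of protein disulfide isomerase (PDIA1), an enzyme that forms and rearranges disulfide bonds of proteins in the endoplasmic reticulum, and CCF642-34 is an analogue of it that was compared at the same dose and time. The sample titles name the same line, MM1.S, in all groups and no modification of it. The line was derived from 1 patient, and no source used here says that the 2 libraries of a group came from separate cultures. The p-values thus rest only on spread between libraries, which may be technical and which the test below shares between genes.

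AP-1 is a dimer of basic leucine zipper proteins. JUN proteins can pair with each other or with FOS proteins, whereas FOS proteins need a partner, and the dimers bind the DNA motif TGAGTCA or the related cyclic AMP response element. FOS, FOSB, JUN and JUNB are classic immediate early genes, transcribed within minutes of a growth factor or a stress without new protein synthesis, while JUND is usually present at a steady level. The JNK, ERK and p38 kinases act on the family through phosphorylation of the JUN and FOS proteins and of the factors already bound at their promoters. In plasma cells, AP-1 shares its DNA sites with the large MAF proteins, one of which is highly expressed in this cell line.

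The promoters of the family are shown first because the letters at which FOS and JUN transcription is known to be controlled differ between the members. A window of 250 bases before and 50 bases from the transcription start was available from RefSeq (GRCh38.p14) for all 6 listed members. Each line below holds 30 bases of that window, 5′ to 3′ on the strand of the gene, with a matched motif in capitals. The motif is TGACGT, the core of the cyclic AMP response element, in FOS, FOSB and FOSL2. It is TGACATCA, the JUN element close to the start, in JUN, CCAAT in JUNB, and the whole palindromic element TGACGTCA in JUND.
FOS, chr14:75278752-75278781, plus strand: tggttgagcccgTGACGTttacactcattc
FOSB, chr19:45467924-45467953, plus strand: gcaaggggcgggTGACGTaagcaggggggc
FOSL2, chr2:28392780-28392809, plus strand: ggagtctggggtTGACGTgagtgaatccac
JUN, chr1:58784096-58784125, minus strand: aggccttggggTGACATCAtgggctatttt
JUNB, chr19:12791407-12791436, plus strand: ctccggcgacggCCAATcggagcgcacttc
JUND, chr19:18281804-18281833, minus strand: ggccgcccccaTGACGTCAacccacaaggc
With the base before the start counted as -1, the capitals lie at -64 to -59 in FOS, at -60 to -55 in FOSB and at -66 to -61 in FOSL2. The JUN match begins at -67, the JUNB match at -67 and the JUND match at -200. JUND also holds a TGACGT on the opposite strand at -87 to -82, outside the stretch printed. By GENCODE release 29 the stretches of JUN and FOSL2 lie wholly, and that of FOS in part, inside the annotated gene span, because that annotation begins these genes further upstream than RefSeq does.

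On both strands, TGACGT was present in the windows of 4 of the 6 members (FOS, FOSB, FOSL2 and JUND). It was present in 7.98% of all 35116 windows of the same length and in 10.7% of the windows of listed genes. TGACGT was chosen after the sequences of these members were read, so its count among them is a description only. This motif lies within TGACGTCA, which was present in 1 member and in 1.85% of all windows. The upstream JUN element TTACCTCA was found in JUN alone among the members (0.715% of all windows), and TGACATCA likewise (2.61%). CCAAT was present in JUN, JUNB and JUND (34.6% of all windows) and TATAAA in FOS, FOSB and JUNB (11.5%). The AP-1 motif TGAGTCA itself was present in 1 member, FOSL2 (4.95% of all windows), and the CArG box of serum response factor in none of these windows (1.29%). The serum response element for which FOS is known lies further upstream than the window reaches. These matches describe letters and not bound factors.

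The libraries held 20567313 to 28459677 reads. Values were deposited as CPM, in which read numbers are scaled to library size, and the listed genes took 99.9% of each library. All 10 plasma cell markers were listed, and their summed level was 9904 to 10000 CPM with DMSO, 7020 to 7054 CPM with CCF642 and 7866 to 7911 CPM with CCF642-34. JCHAIN was the largest part of that sum, at a mean of 4319, 1833 and 2348 CPM in the same order. The markers went both ways. By the test described below, 4 were higher and 6 lower with CCF642 (63.1% of all genes called in either direction). With CCF642-34, 2 were higher and 6 lower (57.6% of all genes). IRF4 was among those higher with both, at 669.5, 1137 and 1356 CPM. Of 5 markers each, 1 of B cells (BCL6), 1 of T cells (CD3E), 0 of myeloid cells and 1 of stromal cells (COL1A1) were listed. BCL6 was at 1.04 to 1.45 CPM with DMSO, 3.59 to 4.04 CPM with CCF642 and 2.35 to 2.48 CPM with CCF642-34, CD3E was at most 3.19 CPM in any library, and COL1A1 was at 1.09 to 1.495, 9.00 to 10.5 and 2.74 to 3.53 CPM in the same order. BCL6 and COL1A1 thus had the same group order as the members below and the plasma cell sum the reverse order, and their part in the results was not tested. In RNA from a whole culture, more RNA per cell and more cells with that RNA cannot be told apart.

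All 6 listed members were higher with CCF642 than with DMSO, between 3.10-fold and 8.39-fold, and all 6 were higher with CCF642-34 than with DMSO, between 1.66-fold and 4.26-fold. All 6 were lower with CCF642-34 than with CCF642. For every member, each CCF642 library was above each CCF642-34 library, and each CCF642-34 library was above each DMSO library. How many of all genes had this same order was not counted, so the order and the separation of groups given below are descriptions. The test was limma on log2(CPM + 1), with p-values adjusted over all 11048 genes. CPM were first scaled by TMM, which gives 1 factor per library. Limma shares the spread between genes, with 3 residual beside 42.9 prior degrees of freedom. Its p-values therefore rest mostly on the spread of other genes. A linear model fitted gene by gene gave the members adjusted p = 0.00127 (JUN) to 0.00636 (FOSB) for CCF642 against DMSO. For CCF642-34 against DMSO that model gave 0.00255 (JUN) to 0.0291 (FOSB). By the limma test 31.8% of all genes were higher with CCF642 than with DMSO, and 29.7% were higher with CCF642-34 than with DMSO. Between the compounds 17.4% were lower with CCF642-34 than with CCF642. Calls by adjusted p are thus common in these libraries, and the size of the change sets the members apart more than the call does. At least 2-fold higher with an unadjusted p under 0.05 were 4.5% of all genes with CCF642 and 6 of the 6 members, and 2.59% of all genes with CCF642-34 and 4 of the 6 members. Fold changes below are on the log2(CPM + 1) scale, which understates changes of genes with low CPM.

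**Figure D1:**
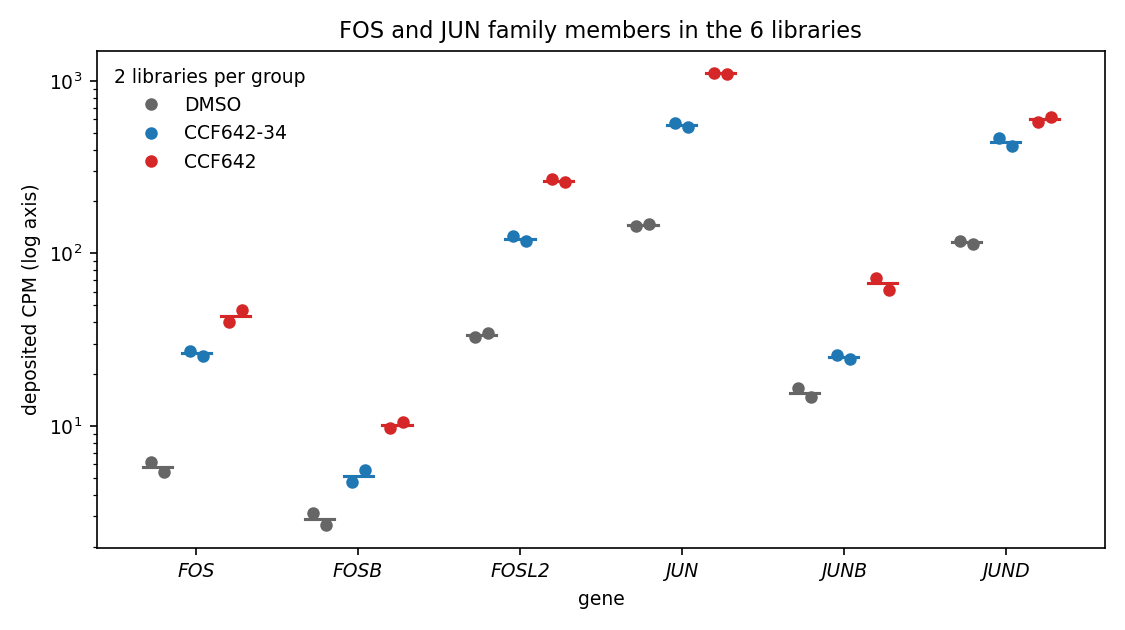
CPM of each listed FOS and JUN gene on a log axis, with 1 point per library (2 libraries each of DMSO, CCF642 and CCF642-34) and the group mean as a line. For each of the 6 genes the DMSO libraries are lowest and the CCF642 libraries highest, from 5.42 to 47.0 CPM for FOS and from 144 to 1105 CPM for JUN.

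Within the FOS family, FOS itself encodes the prototype partner of JUN, whose RNA is short-lived and normally close to absent in resting cells. The gene (ENSG00000170345.9, GRCh38 chromosome 14, 75278774 to 75282230, plus strand) has 4 exons in its longest transcript. FOS stood at 6.18 and 5.42 CPM with DMSO, 39.9 and 47.0 CPM with CCF642, and 27.2 and 25.6 CPM with CCF642-34. The DMSO libraries were lowest, the CCF642 libraries highest, and no library of one group fell in the range of another. FOS was 7.10-fold higher with CCF642 than with DMSO (log2 difference 2.83, SE 0.103, limma adjusted p = 2.88e-28) and 4.26-fold higher with CCF642-34 (2.09, adjusted p = 8.89e-23). By size of increase it ranked 26 of 11048 genes with CCF642 and 36 with CCF642-34.

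FOSB encodes a close relative of FOS that is also transcribed briefly after stimulation, and its short splice form lacks the activating end. The gene (ENSG00000125740.13, GRCh38 chromosome 19, 45467995 to 45475179, plus strand) gave the lowest reads of the family, 57 to 240 per library. Its level was 3.13 and 2.66 CPM with DMSO, 9.77 and 10.6 CPM with CCF642, and 4.74 and 5.58 CPM with CCF642-34. The groups kept apart here too, although the CCF642-34 libraries were closer to DMSO than to CCF642. The increase was 3.10-fold with CCF642 (log2 difference 1.63, SE 0.155, limma adjusted p = 6.81e-13) and 1.66-fold with CCF642-34 (0.73, adjusted p = 7.98e-05), and it ranked 134 and 603 of all genes.

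FOSL2 encodes FRA-2, a FOS-related protein without the strong activating domain of FOS, whose RNA usually appears later and lasts longer. The gene (ENSG00000075426.11, GRCh38 chromosome 2, 28392448 to 28417312, plus strand) has 4 exons in its longest transcript and gave 739 to 5866 reads per library. It was measured at 32.8 and 34.5 CPM with DMSO, 269 and 260 CPM with CCF642, and 125 and 118 CPM with CCF642-34. Both compounds moved it well outside the DMSO range, and the CCF642 libraries were above the CCF642-34 libraries. FOSL2 showed the largest CCF642 change among the members, 8.39-fold (log2 difference 3.07, SE 0.0543, limma adjusted p = 2.69e-41, rank 17 of all genes). With CCF642-34 it was 3.76-fold higher than with DMSO (1.91, adjusted p = 1.78e-32, rank 52).

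Within the JUN family, JUN encodes c-Jun, the main target of the JNK kinases and a protein that acts on its own promoter. It is a gene of 1 exon (ENSG00000177606.6, GRCh38 chromosome 1, 58780788 to 58784327, minus strand). JUN was at 144 and 148 CPM with DMSO, 1105 and 1102 CPM with CCF642, and 568 and 539 CPM with CCF642-34. The 3 groups did not overlap, and the spread within a group was small beside the distance between groups. It was 8.26-fold higher with CCF642 (log2 difference 3.05, SE 0.0395, limma adjusted p = 4.73e-47, rank 18) and 4.02-fold higher with CCF642-34 (2.01, adjusted p = 3.63e-39, rank 43).

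JUNB encodes a JUN protein that activates more weakly than c-Jun and can oppose it. Its gene also has 1 exon (ENSG00000171223.5, GRCh38 chromosome 19, 12791496 to 12793315, plus strand). JUNB had 16.5 and 14.7 CPM with DMSO, 72.5 and 61.5 CPM with CCF642, and 26.0 and 24.5 CPM with CCF642-34. The CCF642 libraries stood far above the other 4, and the CCF642-34 libraries were above DMSO by less than for most of the other members. The increase was 4.47-fold with CCF642 (log2 difference 2.16, SE 0.0876, limma adjusted p = 2.23e-26, rank 61) and 1.68-fold with CCF642-34 (0.75, adjusted p = 4.49e-10, rank 568). By GENCODE release 29, JUNB shares 259 exon bases with HOOK2 on the opposite strand, and the strand setting of the counting is not given in the sources used here. HOOK2 was at 8.41 to 8.48 CPM with DMSO, 8.90 to 10.7 CPM with CCF642 and 8.71 to 9.87 CPM with CCF642-34, so that fewer reads were assigned to it than to JUNB in all 6 libraries, and its CCF642 difference was 0.31 on the log2 scale (limma adjusted p = 0.0374).

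JUND encodes the JUN protein that is typically abundant in resting cells. The gene of 1 exon (ENSG00000130522.5, GRCh38 chromosome 19, 18279760 to 18281622, minus strand) carries the whole cyclic AMP response element printed above. JUND measured 119 and 113 CPM with DMSO, 581 and 615 CPM with CCF642, and 468 and 419 CPM with CCF642-34. Here, as for FOS, the CCF642-34 libraries were closer in mean CPM to the CCF642 libraries than to DMSO. On the log2 scale the same held for FOS, JUN and FOSL2. JUND was 5.62-fold higher with CCF642 (log2 difference 2.49, SE 0.0456, limma adjusted p = 9.1e-41, rank 40) and 4.04-fold higher with CCF642-34 (2.02, adjusted p = 1.43e-36, rank 42).

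**Figure D2:**
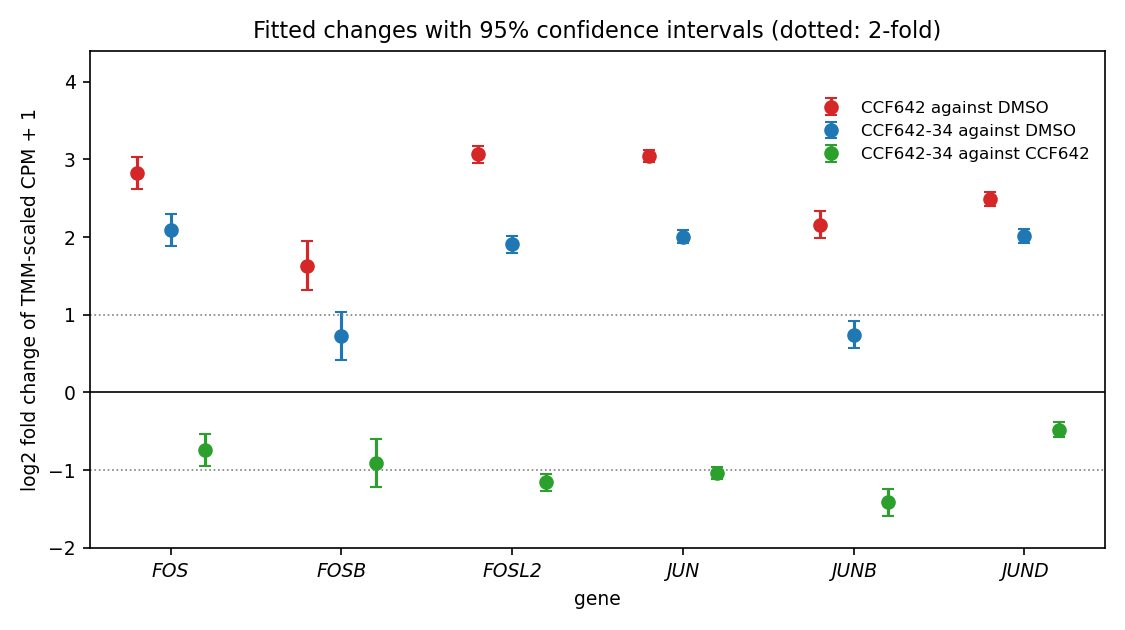
Log2 differences of the 6 listed members in the 3 comparisons, with 95% confidence intervals from the limma fit (2 libraries per group). All intervals against DMSO lie above 0, with FOSB lowest for both compounds (1.63 and 0.73), and all intervals of CCF642-34 against CCF642 lie below 0.

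**Figure D3:**
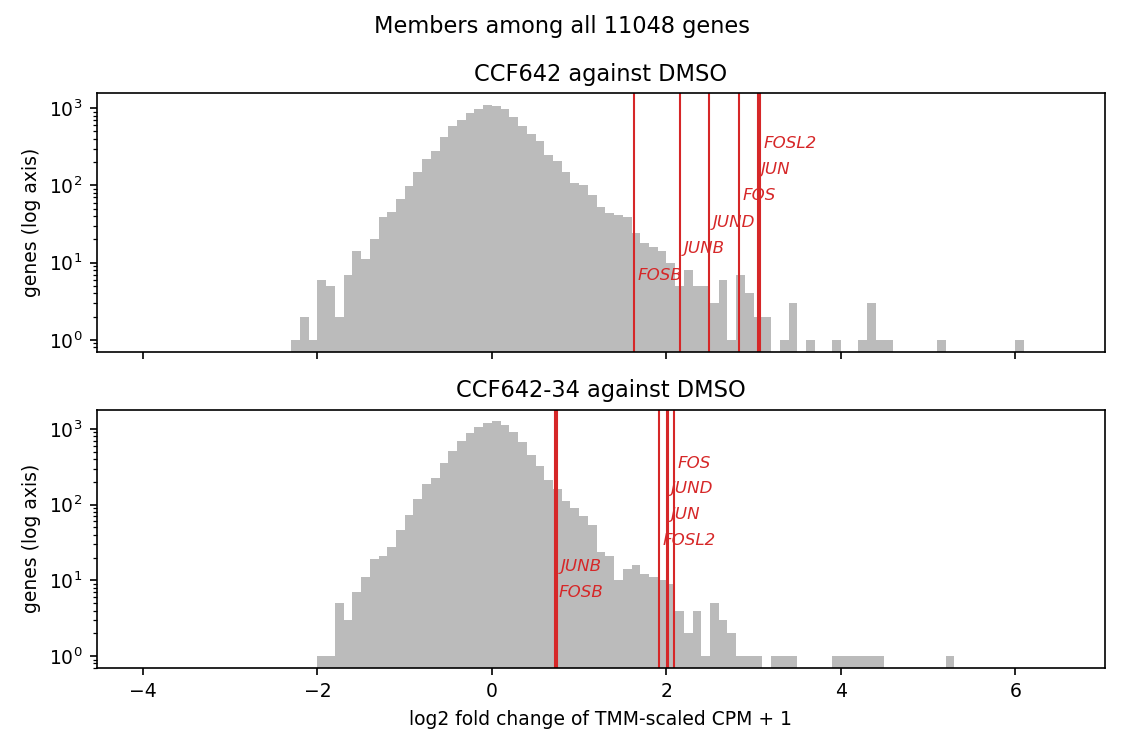
Histograms of the log2 difference against DMSO over all 11048 listed genes, for CCF642 above and CCF642-34 below, with the number of genes on a log axis and a red line for each of the 6 members. The members lie at 1.63 to 3.07 for CCF642 and at 0.73 to 2.09 for CCF642-34, where FOSB and JUNB stand apart from the other 4. Both histograms use the same DMSO libraries.

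The 2 compounds were compared directly for each member at the same dose and time, which made 1 pair of compounds, with p-values adjusted over all genes. The differences ranged from small for JUND to large for JUNB. JUNB was 2.66-fold higher with CCF642 than with CCF642-34 (log2 difference -1.41 for CCF642-34 minus CCF642, 95% interval -1.59 to -1.24, limma adjusted p = 3.4e-18). FOSL2 was 2.23-fold higher (-1.16, interval -1.27 to -1.05, adjusted p = 1.18e-22) and JUN 2.05-fold higher (-1.04, interval -1.12 to -0.96, adjusted p = 3.85e-26). These 3 genes passed the 2-fold rule downwards, which 0.299% of all genes did. JUN lay at its edge and was not past 2-fold without CCF642-34 replicate 2 or with library size as the only scaling, which left 2 members.

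Below 2-fold were the other 3 members. FOSB was 1.87-fold higher with CCF642 than with CCF642-34 (-0.91, interval -1.22 to -0.59, limma adjusted p = 8.27e-06), FOS 1.67-fold (-0.74, interval -0.95 to -0.53, adjusted p = 1.45e-07) and JUND 1.39-fold (-0.48, interval -0.57 to -0.38, adjusted p = 8.23e-12). A linear model fitted gene by gene, with no sharing of the spread between genes, left these 3 differences short of the adjusted threshold (adjusted p = 0.0743 for FOS, 0.0547 for FOSB and 0.0757 for JUND).

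Measured as a share of its own CCF642 log2 change, the CCF642-34 change was 80.9% for JUND, 73.9% for FOS, 65.9% for JUN, 62.3% for FOSL2, 44.5% for FOSB and 34.5% for JUNB. Both changes of each share use the same DMSO libraries, so the shares are descriptions. They put FOSB and JUNB at the low end and JUND at the high end. FOS and JUN, which are immediate early genes like FOSB and JUNB, lay between these ends.

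Levels of different genes were compared as CPM per kilobase of the longest transcript. JUND and JUN were the most abundant in every group, also with the other length given below. In DMSO, JUND was at 62.2, JUN at 41.2, JUNB at 8.58, FOSL2 at 5.02, FOS at 2.69 and FOSB at 0.768 CPM per kilobase, and each neighbouring pair in that order differed by more than the spread between libraries. With CCF642 the top 2 no longer differed beyond their spread, JUND at 312 and 330 and JUN at 312 and 311 CPM per kilobase. FOSL2 (40.1 and 38.7) and JUNB (39.9 and 33.8) overlapped with CCF642 as well, while FOS was at 20.1 and FOSB at 2.70. With CCF642-34 the order was JUND at 238, JUN at 156, FOSL2 at 18.1, JUNB at 13.9, FOS at 12.2 and FOSB at 1.37 CPM per kilobase, with no overlap between neighbours. The order rests in part on transcript length. With the median length of protein-coding transcripts, FOS was at 6.95 in DMSO and FOSL2 at 5.78, and with both compounds FOS ranked 3, FOSL2 ranked 4 and JUNB ranked 5 of the 6 members. By that length JUND, at 492 and 521 CPM per kilobase, was also well above JUN with CCF642.

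Summed over its listed members, the FOS family stood at 8.47 ± 0.153 (SD, n = 2) CPM per kilobase with DMSO, 62.3 ± 1.48 with CCF642 and 31.7 ± 1.17 with CCF642-34. For the JUN family the sums were 112 ± 2.10, 670 ± 8.01 and 408 ± 24.8 in the same groups, so that JUN family RNA exceeded FOS family RNA in all 6 libraries. No test was made on these sums or on the shares that follow.

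Within the JUN family, JUN took 36.8% of the sum with DMSO, 46.6% with CCF642 and 38.3% with CCF642-34. JUND took 55.6%, 47.9% and 58.3%, and JUNB 7.66%, 5.50% and 3.40%, in the same order. The JUN share thus stood out with CCF642 alone, and the JUNB share was lowest with CCF642-34. Within the FOS family, FOSL2 held 59.3%, 63.4% and 57.2%, FOS 31.7%, 32.3% and 38.5%, and FOSB 9.05%, 4.34% and 4.32%. FOSL2 was the largest part of the FOS family in every group by this length, whereas with the median length FOS was the largest (51.1%, 51.8% and 58.5%, beside 42.5%, 45.2% and 38.6% for FOSL2). The share of FOSB was close to equal with both compounds.

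**Figure D4:**
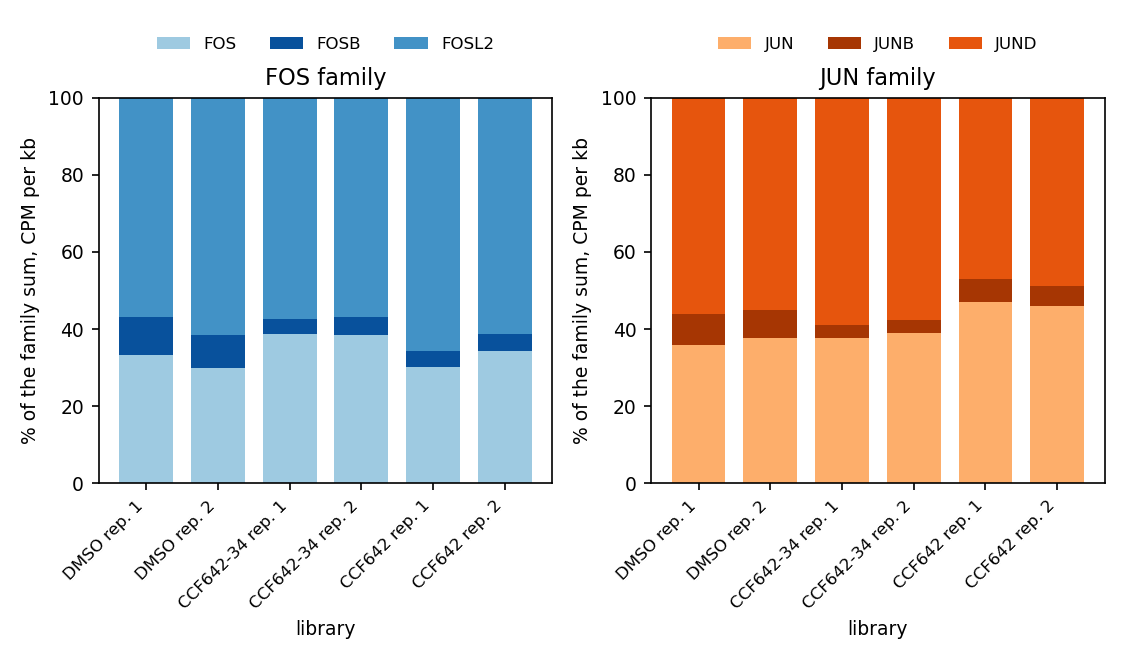
Shares of the FOS family sum and of the JUN family sum taken by each listed member, in percent of CPM per kilobase of the longest transcript, with 1 stacked bar per library (2 per group). The JUN segment averages 36.8% of the JUN family with DMSO, 38.3% with CCF642-34 and 46.6% with CCF642.

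Members also differed in which other genes had the most similar values over the 6 libraries. Likeness was the distance, in log2 units, between profiles of log2(CPM + 1) centred on the mean of each gene, with CPM scaled by TMM. The members' own profiles spanned 1.78 to 3.13 log2 units. FOSL2 and JUN were nearest to each other, at 0.134, closer than either was to any of the other listed genes, and ZBTB10, a zinc finger factor, followed for both (0.270 from FOSL2 and 0.264 from JUN). JUND was nearest to SQSTM1, the autophagy receptor p62 (0.181), CD55, a complement regulator (0.188), and MAFF, a small MAF protein (0.248). Among the genes close to FOS were the semaphorin gene SEMA7A (0.285) and the kinase gene MAP3K8 (0.330).

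The 2 members with the lowest CCF642-34 share were nearest to other genes. FOSB was nearest to FBXO32, a muscle ubiquitin ligase subunit (0.147), EGR1, an immediate early zinc finger factor (0.153), and PIGA, an enzyme of membrane anchor synthesis (0.169). JUNB was nearest to NFKBIA, the inhibitor of NF-kappaB (0.335), HSPA6, a stress-induced heat shock protein (0.347), and USP36, a deubiquitinase (0.461). Against DMSO, NFKBIA differed by 1.96 with CCF642 and 0.82 with CCF642-34 on the log2 scale, beside 2.16 and 0.75 for JUNB. Between members the largest distance was 1.58, between FOSB and JUN. All distances rest on the same 6 libraries and are descriptions.

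RNA of other basic leucine zipper genes, taken as possible partners of FOS and JUN, moved less uniformly. These were genes of the ATF, CREB, BATF and MAF groups with JDP2 and NFE2L2, and not every pairing is established. Of these 17 genes, 15 were listed. With CCF642 11 were higher and 2 lower (63.1% of all genes called in either direction), with a median log2 difference of 1.26 beside -0.0066 for all genes. With CCF642-34 10 were higher and 2 lower (57.6% of all genes), with a median of 0.99 beside 0.0067. ATF3, a stress-induced partner of JUN, was at a mean of 22.9 CPM with DMSO, 1406 with CCF642 and 857 with CCF642-34 (log2 differences 6.01 and 5.25). CREB5 rose from 1.45 to 15.7 and 10.7 CPM (2.87 and 2.32). In the other direction, MAF, a large MAF protein, fell from 1400 CPM to 505 and 642.2 CPM (-1.34 and -1.03). MAFK, a small MAF protein without an activating domain, was also lower (-0.54 and -0.50).

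**Figure D5:**
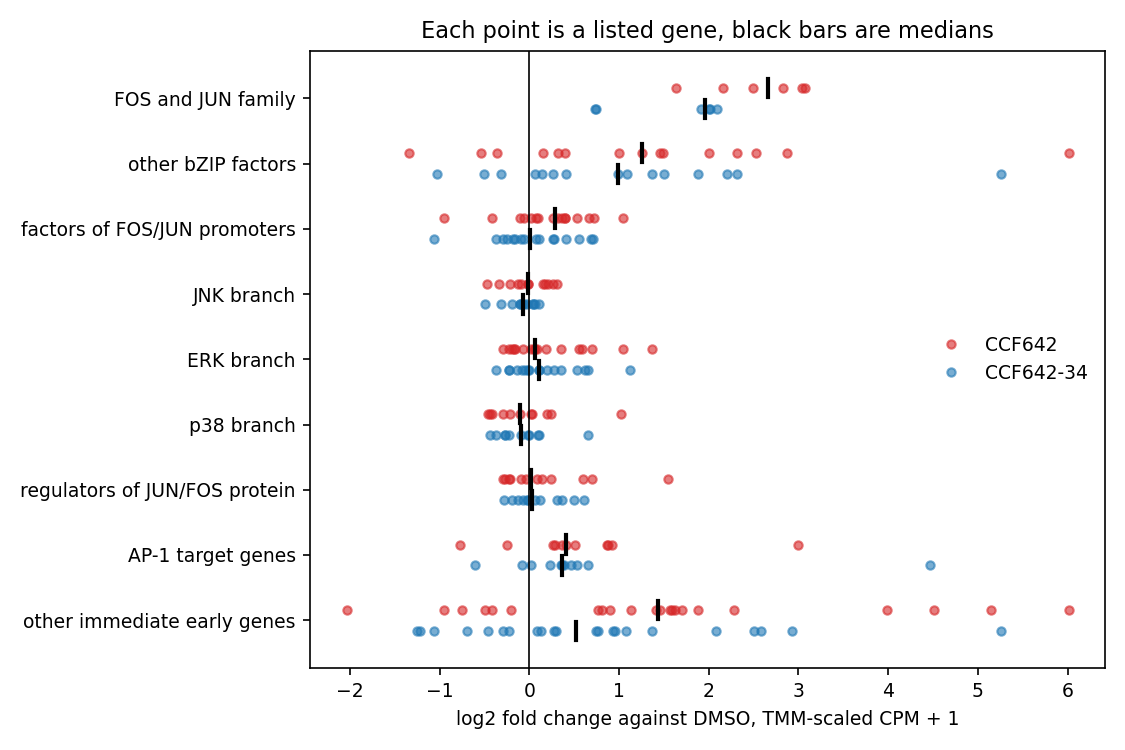
Log2 differences against DMSO for each listed gene of the FOS and JUN family and of the other gene lists, by compound, with the median of each list marked. The 6 members have medians of 2.66 with CCF642 and 1.96 with CCF642-34, while the JNK, ERK and p38 lists have medians between -0.10 and 0.11.

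RNA of factors that act at FOS and JUN promoters, among them the coactivators CRTC1, CRTC2, CRTC3, CREBBP and EP300, moved in both directions. Of 18, 16 were listed, and 9 were higher and 2 lower with CCF642 (median 0.29), against 6 higher and 6 lower with CCF642-34 (median 0.006), where the gene-wise linear model called 6 in place of 12. Over all genes 63.1% and 57.6% were called in either direction. MEF2D and MEF2A, which bind the JUN promoter, were higher with both compounds (1.04 and 0.72 with CCF642, 0.69 and 0.71 with CCF642-34). SRF, which binds the serum response element of FOS, fell from 94.9 CPM with DMSO to 44.4 with CCF642 and 42.1 with CCF642-34 (log2 differences -0.95 and -1.07). ELK1, its partner at that element, was lower with both compounds (-0.41 with CCF642 and -0.30 with CCF642-34).

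The kinase pathways upstream of the family showed no large change in RNA as lists. Of 16 JNK pathway genes 12 were listed, and 4 were higher and 3 lower with CCF642 (median -0.016). These 7 calls are a share near the 63.1% of all genes, and they became 1 higher and 7 lower with library size as the only scaling and 2 higher and 2 lower with the gene-wise linear model. With CCF642-34 none were higher and 3 were lower (median -0.067), beside 57.6% of all genes called in either direction. That count was 6 with library size as the only scaling. MAP3K11 was higher with CCF642 (0.31), and MAPK9, which encodes JNK2, was lower (-0.33). MAPK8, which encodes JNK1, differed by 0.15 with CCF642 and did not pass the test (limma adjusted p = 0.0558).

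All 17 ERK pathway genes were listed, with 7 higher and 4 lower with CCF642 and 8 higher and 4 lower with CCF642-34 (63.1% and 57.6% of all genes called). With library size as the only scaling, 6 higher and 6 lower were called with CCF642, and 5 higher and 6 lower with CCF642-34. All 11 p38 pathway genes were listed, with 2 higher and 5 lower with CCF642, near the share of 63.1% over all genes, and 1 higher and 3 lower with CCF642-34, beside 57.6% of all genes. MAP2K3, a kinase that activates p38, was higher with both compounds (1.02 with CCF642 and 0.655 with CCF642-34). MAPK14, which encodes p38 alpha, was lower with both (-0.46 and -0.37). RNA levels say nothing of the phosphorylation by which these kinases act.

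Genes that control the turnover of JUN and FOS proteins were 12 listed of 13, with 5 higher and 4 lower with CCF642 and 5 higher and 3 lower with CCF642-34 (63.1% and 57.6% of all genes called). Library size as the only scaling gave 3 higher and 5 lower genes with CCF642, and 4 in each direction with CCF642-34. The 8 called genes with CCF642-34 were 5 without DMSO replicate 2 and 5 without CCF642-34 replicate 2. TRIB1, an adaptor of the COP1 ubiquitin ligase, was higher with both compounds (1.55 and 0.61), as was FBXW7, a ubiquitin ligase subunit that recognizes phosphorylated c-Jun (0.70 with CCF642).

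Of 20 known AP-1 target genes only 11 were listed, and MMP1, MMP3, MMP9, PLAU, IL2, IL6 and CXCL8 were among those not listed. With CCF642 7 were higher and 2 lower (median 0.41, 63.1% of all genes called), and with CCF642-34 7 were higher and 1 lower (median 0.37, 57.6% of all genes called). HMOX1, heme oxygenase, went from 59.2 CPM to 438 with CCF642 and 1256 with CCF642-34, and was higher with CCF642-34 than with CCF642, the opposite order to all 6 members. HMOX1 is also a target of other stress factors. CCND1, cyclin D1, was lower with both compounds (-0.77 with CCF642 and -0.60 with CCF642-34).

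Other immediate early genes were 22 listed of 26, with 16 higher and 6 lower under CCF642 (63.1% of all genes called), against 13 higher and 6 lower with CCF642-34 (57.6% of all genes called). In the direct comparison 16 of the 22 were lower with CCF642-34 and 1 was higher (33.4% of all genes called in either direction), with a median of -0.72 beside -0.97 for the 6 members and 0.0093 for all genes. The nuclear receptor gene NR4A3 had the largest changes of this list apart from ATF3 (5.15 with CCF642 and 2.92 with CCF642-34), and MYC was lower with both (-2.04 and -1.25).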

How the data were processed

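Poly-A RNA of MM1.S cells was profiled by sequencing, with 2 libraries per group. The submitters' processing notes name STAR, edgeR 3.24.3, limma 3.38.3 and the build hg19, while the counting tool, annotation, strand setting and low-value filter are not given in the sources used here. The authors deposited CPM per gene and library, and every listed gene reached at least 1.50 CPM in some library. A matrix of the whole series was not used. Groups were taken from the labels.

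CPM were scaled by TMM and tested as log2(CPM + 1) with limma 3.58.1 (R 4.3.3, trend, 3 groups in 1 fit, no block). Calls needed a Benjamini-Hochberg adjusted p under 0.05 over all 11048 genes. A second rule needed a 2-fold change and an unadjusted p under 0.05. Every value gave a whole read within 0.01, and the recovered reads were tested as alternatives with edgeR 4.0.16, DESeq2 1.42.0 and limma-voom. Scripts were tested on simulated data.

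Loci and lengths came from GENCODE release 29 (GRCh38), and promoter windows from RefSeq. Every member was named, with its 3 nearest genes and up to 2 called genes per list, direction and compound, and HOOK2, MAPK8 and the unlisted genes were added after their values were seen. Some genes that this rule names are not reported here. The members and lists were chosen with earlier results of these data known, and TGACGT after the sequences were read.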

Additional observations from a re-analysis of the deposited data

How the results depend on the processing

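Under 17 alternatives, 303 of 306 member values kept their direction and their side of the adjusted threshold, and none reversed. The exceptions were FOS, FOSB and JUND between the compounds under the gene-wise linear model, which called 3 of 6 members. The widest ranges of a member were 1.12 to 1.95 for FOSB with CCF642 and 1.69 to 2.27 for FOS with CCF642-34. When a group was left with 1 library, that library was assumed to vary like the other groups. Between the compounds 34 genes passed the 2-fold rule, against 95 with a pseudocount of 0.1, 21 with a pseudocount of 4, 114 with edgeR, 101 with DESeq2 and 116 with voom. FOSB also passed it there with the pseudocount of 0.1 and the 3 read-based tests (4 members), and JUN did not with library size alone (2 members).

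For CCF642-34 against DMSO 428 genes passed the 2-fold rule, against 255 with a pseudocount of 4, 668 with edgeR, 652 with DESeq2 and 670 with voom, and for CCF642 717 against 470 with a pseudocount of 4. The gene-wise linear model called 4108 in place of 6362 genes for CCF642-34 and 739 in place of 3685 between the compounds. On recovered reads, of which 100% were whole, edgeR called 6932, 6440 and 3724 genes in the 3 comparisons. With library size alone the median of all genes was -0.13 with CCF642 and -0.08 with CCF642-34, and the calls with CCF642 were 2528 higher and 4738 lower in place of 3517 and 3457, with CCF642-34 2497 and 3972 in place of 3285 and 3077, and between the compounds 2406 and 1488 in place of 1760 and 1925.

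With the median length of protein-coding transcripts, levels in DMSO, CCF642 and CCF642-34 were 6.95, 52.1 and 31.6 CPM per kilobase for FOS, 0.866, 3.05 and 1.54 for FOSB, 5.78, 45.4 and 20.9 for FOSL2, and 98.1, 506 and 375 for JUND. JUN and JUNB have 1 annotated transcript each, so their levels could not change with this length. Libraries of the same number deviated from their group means with correlations of -0.045, -0.088 and 0.124, so the number was not taken to pair them. A fit with the replicate block called 6, 6 and 6 members and 7014, 6422 and 3802 genes, and changed no member's call. FOSB, at 57 to 240 reads per library, is the member most limited by depth.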
